A study of Homo sapiens with 6 samples.

Results

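Collagen lysyl and prolyl hydroxylases were examined as 10 genes of the 62754 in the tables. They were the lysyl hydroxylases PLOD1, PLOD2 and PLOD3, the prolyl 4-hydroxylase alpha subunits P4HA1, P4HA2 and P4HA3, the prolyl 3-hydroxylases P3H1, P3H2 and P3H3, and CRTAP, the non-catalytic partner of P3H1. Each was taken by its exact gene name, which occurred once in the tables. All 10 were among the 16931 genes left for testing after a filter on low counts, and the lowest count of any of them in any library was 507 (P4HA3 in SCR replicate 2). RNA came from HFF-2, a line of human dermal fibroblasts (HDFs), as 3 libraries per group. All libraries, controls included, were labelled with the oxidant tert-butyl hydroperoxide (tBHP) at 40 μM and with day 4, and the cells had been given it in 1 h exposures, 2 each day. Cells of both groups had been infected with lentivirus and selected with puromycin. The SCR group, labelled as wild type, carried a scramble short hairpin, and the TFEB-KD group carried a short hairpin against TFEB, a transcription factor of lysosomal and autophagy genes. A single TFEB hairpin was used, so loss of TFEB and other effects of that hairpin cannot be told apart, and no unstressed library was analysed here. The study's methods describe independent biological replicates for its experiments in general, and the labels do not say whether these libraries came from separate cultures, so the p-values measure the spread between these libraries, which may be partly technical. Total counts were 55135426, 38769620 and 49992885 in SCR replicates 1 to 3 and 42433767, 43002866 and 51499335 in TFEB-KD replicates 1 to 3.

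Procollagen chains are modified in the endoplasmic reticulum (ER) before they fold into a triple helix, by enzymes that need iron, 2-oxoglutarate and ascorbate. Prolyl 4-hydroxylation stabilizes the helix at body temperature. Lysyl hydroxylation provides the sites for sugar attachment and for the cross-links that lysyl oxidases later start. Prolyl 3-hydroxylation is much rarer, and that by P3H1 depends on its complex with CRTAP and cyclophilin B (PPIB). Fibroblasts are the main makers of dermal collagen, and inherited loss of several of these enzymes causes brittle bone or connective tissue disorders.

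TFEB itself, the target of the hairpin, was at 15.0, 14.9 and 16.4 CPM in SCR and at 9.62, 8.20 and 8.87 CPM in TFEB-KD, where CPM is a count scaled to the TMM-adjusted library total and not for transcript length. Every TFEB-KD library lay below every SCR library, and the mean in TFEB-KD was 57.6% of that in SCR, with a log2 fold change of -0.80 ± 0.077 (SE; edgeR adjusted p = 1.37e-05). The fibroblast label fitted the markers: all 10 fibroblast markers had a mean of at least 1 TPM, a unit scaled for transcript length and for the library total. Their summed level was 11793, 11699.8 and 11918 TPM in SCR and 9073, 9094 and 9110.2 TPM in TFEB-KD, with vimentin (VIM) as the most abundant gene. The markers did not move together: in TPM, 6 of the 10 were lower in every TFEB-KD library than in any SCR library (COL1A1, COL1A2, PDGFRB, THY1, LUM and FAP), 2 were higher and 2 overlapped (VIM and S100A4). Those that were higher were PDGFRA, a growth factor receptor, at 15.2, 14.9 and 15.1 TPM in SCR and 47.4, 43.3 and 39.1 TPM in TFEB-KD, and DCN, the proteoglycan decorin, at 149, 131 and 162 TPM in SCR and 278, 295 and 269.6 TPM in TFEB-KD. The part of these marker shifts in the results was not tested. None of 5 endothelial and none of 4 melanocyte markers reached a mean of 1 TPM, and tyrosinase (TYR) was listed at 0 in every library. Of 6 keratinocyte markers 1 did, KRT10, at a mean of 68.7 TPM in SCR and 62.6 TPM in TFEB-KD, while KRT5 was at no more than 0.248 TPM. Of 4 immune markers 1 did, the lysosomal protein CD68, and the summed list, nearly all of it CD68, was at 89.6, 91.2 and 96.3 TPM in SCR and at 143, 133 and 123 TPM in TFEB-KD. The pan-leukocyte marker PTPRC stayed at or below 0.0997 TPM in every library.

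Most of the hydroxylase genes were lower in TFEB-KD than in SCR, and the extent differed widely between members of the same family. PLOD2 and P4HA1 changed most, to 34.3% and 45.7% of their SCR level in CPM, whereas PLOD3 was at 88.3% and CRTAP at 86.0%. P4HA3 and P3H2, the least abundant members, went the other way, to 131% and 128% of SCR. A gene was called when edgeR's quasi-likelihood test gave an adjusted p below 0.05 together with a log2 fold change beyond 0.36 in either direction. By that rule 6 of the 10 were lower (PLOD1, PLOD2, P4HA1, P4HA2, P3H1 and P3H3), where 15.0% of all genes tested were lower, and 1 of the 10 was higher (P4HA3), where 9.99% of all genes tested were higher. On the adjusted p alone, 8 of the 10 were lower and 2 were higher, where the shares of all genes tested were 24.0% and 20.7%. The 8 became 7 in 10 of 16 alternative settings, where the adjusted p of PLOD3 was above 0.05. The CPM of TFEB-KD lay wholly below that of SCR for 7 of the 10, against 28.4% of all genes tested, and wholly above it for 2, against 27.0%. The median log2 fold change of the 10 was -0.50, and that of all genes tested was 0.0033. The split of all calls depended on the scaling: 60.0% of called genes were lower with TMM, and 45.0% with library sizes alone. In bulk RNA, fewer cells that express a gene and less of its RNA per cell cannot be told apart.

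**Figure D1:**
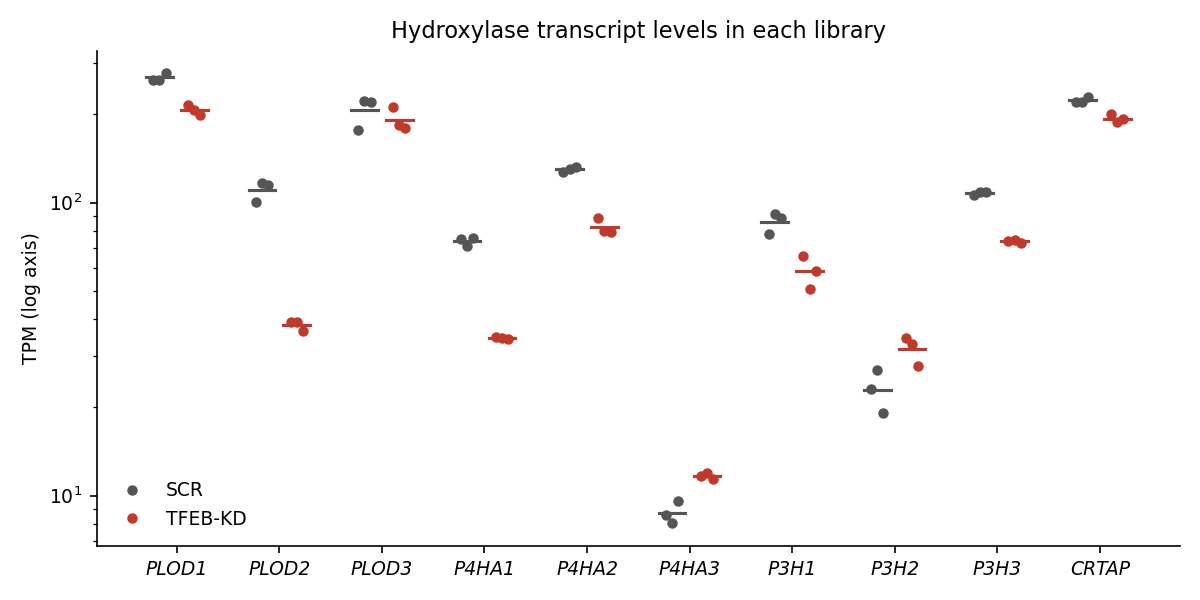
TPM of the 10 hydroxylase genes on a log axis, with a point for each library (grey, SCR; red, TFEB-KD; 3 per group) and a bar at each group's mean. PLOD2 and P4HA1 show the widest gap between groups, PLOD3 overlaps between groups, and P4HA3 and P3H2 sit higher in TFEB-KD.

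In SCR the 10 genes spanned from 8.75 ± 0.786 TPM (SD, n = 3) for P4HA3 to 267 ± 7.80 TPM (SD, n = 3) for PLOD1. Between them, in falling order, stood CRTAP, PLOD3, P4HA2, PLOD2, P3H3, P3H1, P4HA1 and P3H2. Of these neighbours, CRTAP overlapped PLOD3 and PLOD2 overlapped P3H3, and the other neighbours were apart in every library. In TFEB-KD the order was PLOD1, CRTAP, PLOD3, P4HA2, P3H3, P3H1, PLOD2, P4HA1, P3H2 and P4HA3. PLOD2 thus stood below P3H3 and P3H1 in the knockdown, at 38.2 ± 1.56 TPM (SD, n = 3) against 111 ± 8.64 TPM (SD, n = 3) in SCR. In TFEB-KD, PLOD1 overlapped CRTAP, CRTAP overlapped PLOD3, and P4HA1 overlapped P3H2.

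**Figure D2:**
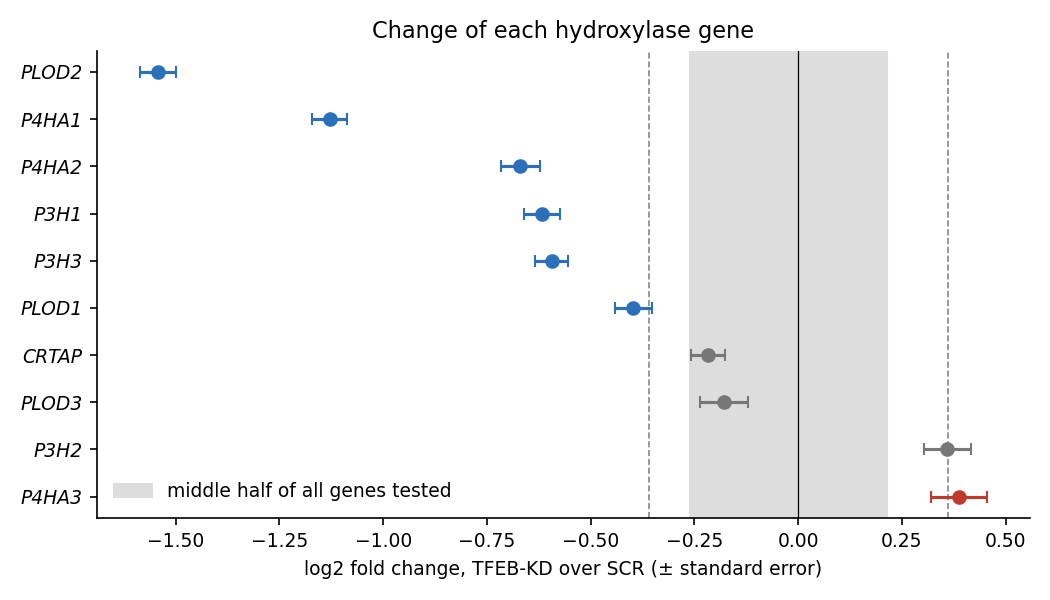
Log2 fold change of each gene, TFEB-KD over SCR, with its standard error (blue, called lower; red, called higher; grey, not called). Dashed lines mark the fold change threshold of 0.36, and the grey band spans the 25th to 75th percentile of all genes tested, -0.26 to 0.21. PLOD2 and P4HA1 lie farthest from the band.

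The question put to the lysyl hydroxylases was whether all of them shared the loss. PLOD2 hydroxylates lysines in the telopeptides, the collagen ends from which pyridinoline cross-links form. It lies on chromosome 3 of GRCh38 from 146035139 to 146163725 (ENSG00000152952.14). It was at 291, 308 and 301 CPM in SCR and at 104, 105 and 100.03 CPM in TFEB-KD. The TFEB-KD libraries were all alike and all far below SCR, with a log2 fold change of -1.54 ± 0.043 (SE; edgeR adjusted p = 8.53e-09). By p-value it was the 7th of the 16931 genes tested. PLOD1, which hydroxylates lysines of the helix and is lost in kyphoscoliotic Ehlers-Danlos syndrome, was at 591, 599.7 and 631 CPM in SCR and at 474, 459 and 450.3 CPM in TFEB-KD. The groups did not overlap, and its log2 fold change of -0.40 ± 0.044 (SE; edgeR adjusted p = 3.68e-05) was just past the threshold. It fell short of it with library sizes alone (-0.31) and without TFEB-KD replicate 3 (-0.357). PLOD3, which also transfers glucose to hydroxylysine-linked galactose, was at 273, 308 and 304 CPM in SCR and at 277, 257 and 248 CPM in TFEB-KD. Here SCR replicate 1 fell within the TFEB-KD range. The log2 fold change of PLOD3 was -0.18 ± 0.058 (SE; edgeR adjusted p = 0.0290), under the fold threshold, and its adjusted p ran from 0.00361 to 0.486 across 16 alternative settings. PLOD3 shares 102 exon bases with ZNHIT1 on the opposite strand, whose log2 fold change was -0.059 (edgeR adjusted p = 0.269). Whether counting used strand is not given in the sources used here, so reads from those bases cannot be told apart.

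Because the members changed unequally, the makeup of the lysyl hydroxylase transcripts shifted. Summed over PLOD1, PLOD2 and PLOD3, TPM was 541, 601 and 610.3 in SCR and 465, 429.8 and 415 in TFEB-KD, 74.8% of the SCR mean. The share of PLOD2 in that sum was 18.6%, 19.4% and 18.8% in SCR and 8.40%, 9.12% and 8.79% in TFEB-KD. The share of PLOD3 was 32.8%, 36.9% and 35.97% in SCR and 45.4%, 42.9% and 43.2% in TFEB-KD. The share of PLOD1 overlapped between the groups, at 45.8% ± 2.49 in SCR against 47.4% ± 1.01 in TFEB-KD (SD, n = 3 each). On the log2 scale, the ratio of PLOD2 to PLOD1 in TPM was lower by 1.16 in TFEB-KD, with a difference of -1.16 between group means of -1.27 and -2.43. An exact two-sided permutation test gave p = 0.1, the smallest that 3 libraries against 3 allow, and 0.117 after adjustment over the 7 ratios computed. The ratio of PLOD3 to PLOD1 differed by 0.27 on the same scale (exact two-sided permutation p = 0.1, adjusted 0.117).

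**Figure D3:**
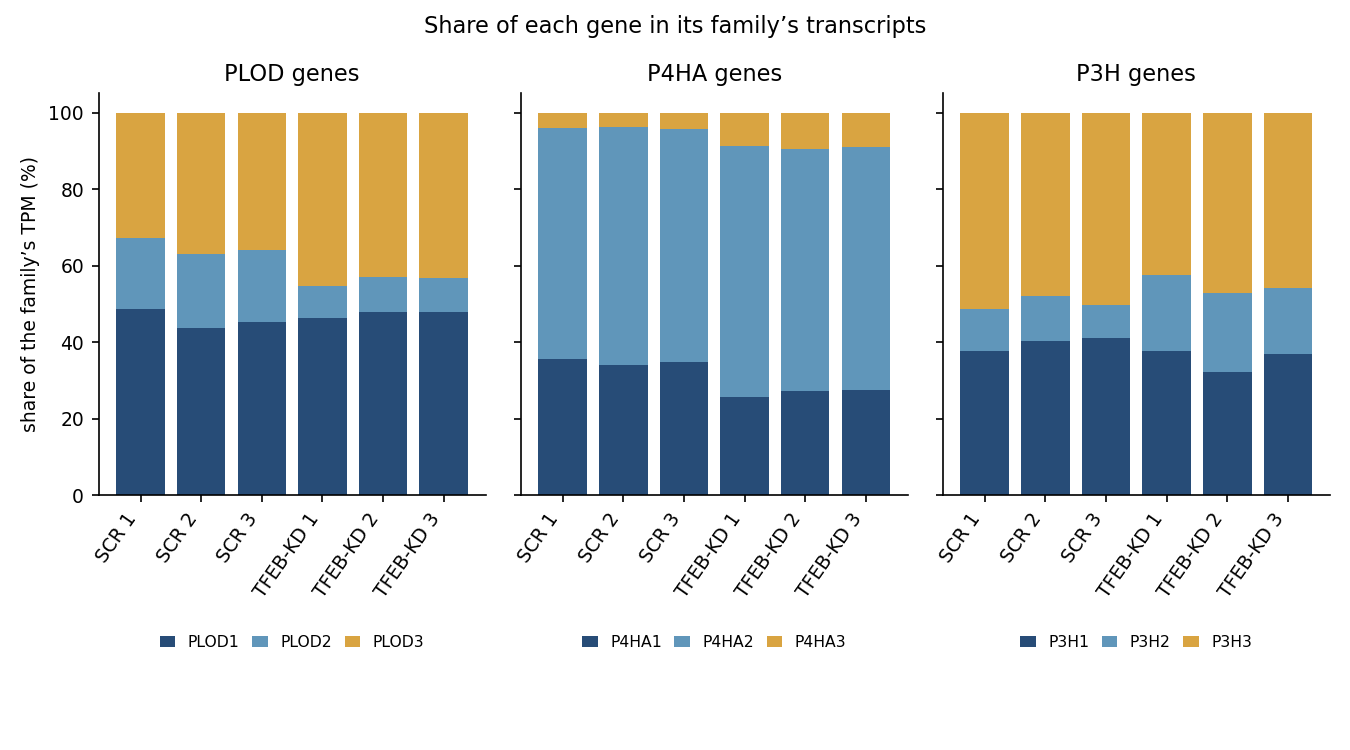
Share of each gene in the summed TPM of its family, in percent, for each of the 6 libraries, with the lysyl hydroxylases (PLOD), prolyl 4-hydroxylase alpha subunits (P4HA) and prolyl 3-hydroxylases (P3H) in separate panels. The PLOD2 band narrows from 18.9% to 8.77% in TFEB-KD, and the P4HA3 and P3H2 bands widen.

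The alpha subunits of prolyl 4-hydroxylase carry the active site and pair with protein disulfide isomerase (P4HB) as the beta subunit. P4HA1, the alpha subunit of the type I enzyme, lies on chromosome 10 from 73007217 to 73096974 (ENSG00000122884.13). It was at 156, 149 and 160.1 CPM in SCR and at 70.5, 70.6 and 71.9 CPM in TFEB-KD. The TFEB-KD libraries were close to each other and far below SCR, with a log2 fold change of -1.13 ± 0.042 (SE; edgeR adjusted p = 1.80e-08). P4HA2, the alpha subunit of the type II enzyme, was at 235, 247 and 247 CPM in SCR and at 161, 147 and 150.2 CPM in TFEB-KD. Its groups were also apart, with a log2 fold change of -0.67 ± 0.048 (SE; edgeR adjusted p = 1.44e-06). P4HA2 shares 548 exon bases with P4HA2-AS1 on the opposite strand, which had a mean count of 24.5 over the 6 libraries and a log2 fold change of -1.43 (edgeR adjusted p = 0.105). The part of antisense reads in the P4HA2 value was not tested. P4HA3, an alpha subunit that is scarce in most tissues, was at 14.1, 13.5 and 15.9 CPM in SCR and at 19.1, 18.9 and 19.0 CPM in TFEB-KD. All 3 TFEB-KD libraries were above SCR, with a log2 fold change of 0.39 ± 0.068 (SE; edgeR adjusted p = 8.99e-04). It was not called without SCR replicate 2 (0.34). P4HA3 shares 166 exon bases with PPME1 on the opposite strand, a more abundant gene with a mean count of 4108 whose log2 fold change was -1.31 (edgeR adjusted p = 2.50e-08), opposite in sign to that of P4HA3. The part of PPME1 reads in the P4HA3 value was not tested.

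Summed TPM of the alpha subunits was 210.4, 209 and 218 in SCR and 135, 126 and 125 in TFEB-KD, or 60.6% of SCR, the lowest percentage of the 3 families. P4HA2 made up most of it, at 61.1% ± 1.02 in SCR against 64.1% ± 1.31 in TFEB-KD (SD, n = 3 each). P4HA1 went from 34.8% ± 0.845 to 26.8% ± 0.908 (SD, n = 3 each), and P4HA3 from 4.11% ± 0.284 to 9.07% ± 0.436 (SD, n = 3 each). None of the 3 shares overlapped between groups. The log2 ratio of P4HA2 to P4HA1 was higher by 0.45 in TFEB-KD and that of P4HA3 to P4HA1 by 1.52 (exact two-sided permutation p = 0.1 for each, adjusted 0.117). P4HB, the beta subunit, was far more abundant than its partners, and TPM of P4HB per TPM of the alpha subunits was 4.08, 4.20 and 4.22 in SCR and 5.49, 5.48 and 5.30 in TFEB-KD. Transcripts of the beta subunit thus stood in greater excess over those of the alpha subunits in all 3 TFEB-KD libraries. The ratio of the proteins was not tested.

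PLOD2 and P4HA1 are known targets of the hypoxia-inducible factors (HIF), which bind the cores ACGTG and GCGTG, and TFEB binds the E-box CACGTG. The 250 bases before the start of each gene in RefSeq (GRCh38.p14) were therefore searched for these letters on both strands, and 9 of the 10 genes, all but P4HA3, matched, with 10 windows in all since P3H2 has 2 starts. ACGTG or GCGTG was in 7 of the 10 windows and in 43.2% of 35116 windows of the same length, and CACGTG, which holds ACGTG on both strands, was in 1 of the 10 and in 6.34% of all. The windows of the genes that changed most, PLOD2 (chr3:146161185-146161434, minus strand) and P4HA1 (chr10:73096867-73097116, minus strand), are printed with ACGTG and GCGTG in capitals, CACGT being ACGTG on the other strand. The P3H2 window with the E-box (chr3:190120898-190121147, minus strand) is printed with CACGTG in capitals, as it is the 1 window of the 10 that holds it.
PLOD2: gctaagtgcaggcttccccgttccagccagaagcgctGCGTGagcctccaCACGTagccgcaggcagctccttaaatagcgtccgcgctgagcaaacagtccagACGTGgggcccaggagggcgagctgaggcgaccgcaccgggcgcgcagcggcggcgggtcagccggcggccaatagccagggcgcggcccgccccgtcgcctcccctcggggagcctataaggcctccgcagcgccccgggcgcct
P4HA1: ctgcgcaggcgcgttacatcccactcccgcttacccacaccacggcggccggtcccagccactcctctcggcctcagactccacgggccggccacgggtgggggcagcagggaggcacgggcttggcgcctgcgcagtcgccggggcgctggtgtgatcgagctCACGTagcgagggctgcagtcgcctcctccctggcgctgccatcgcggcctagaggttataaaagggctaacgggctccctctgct
P3H2: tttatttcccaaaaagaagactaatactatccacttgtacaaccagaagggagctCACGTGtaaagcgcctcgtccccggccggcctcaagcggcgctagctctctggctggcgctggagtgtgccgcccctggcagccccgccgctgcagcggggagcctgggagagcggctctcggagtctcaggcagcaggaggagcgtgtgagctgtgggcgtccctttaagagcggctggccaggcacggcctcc
PLOD2 held ACGTG at -200 and -146 and GCGTG at -213, P4HA1 held ACGTG at -86, and P3H2 held the E-box at -195, counted from the RefSeq start with -1 as the last base before it. These RefSeq starts lie inside the GENCODE gene intervals, 2541 bases downstream of the GENCODE start for PLOD2, 108 for P4HA1 and 1540 for P3H2, so the windows are not those of the outermost GENCODE starts. The P4HA2 window, which held no match, also lies inside its gene interval. On the minus strand of chromosome 5 the window ends at 132227341 and the GENCODE gene at 132295315. The matches describe the letters in the windows and say nothing of whether a factor binds them.

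The prolyl 3-hydroxylases split in direction. P3H1, the catalytic member of the complex whose loss causes a severe brittle bone disease, was at 142, 145 and 149 CPM in SCR and at 98.3, 91.7 and 94.2 CPM in TFEB-KD. The groups were apart, with a log2 fold change of -0.62 ± 0.043 (SE; edgeR adjusted p = 1.22e-06). P3H3, which is linked to lysyl hydroxylation together with P3H4, was at 191, 196 and 197 CPM in SCR and at 127, 128 and 131 CPM in TFEB-KD. Both groups were tight, and the log2 fold change of -0.59 ± 0.039 (SE; edgeR adjusted p = 7.95e-07) was close to that of P3H1. The log2 ratio of P3H3 to P3H1 differed by 0.020 between groups (exact two-sided permutation p = 0.9, adjusted 0.9), and ranged from -0.0841 to 0.108 when single libraries were left out. P3H3 shares 114 exon bases with GPR162 on the same strand, which had a mean count of 84.2 over the 6 libraries. The log2 fold change of GPR162 was -0.66 (edgeR adjusted p = 0.0174), the same in sign as that of P3H3. The part of GPR162 reads in the P3H3 value was not tested. CRTAP, which holds P3H1 in the complex, was at 267, 271 and 282 CPM in SCR and at 237, 236 and 233 CPM in TFEB-KD. Every TFEB-KD library was below SCR, but the log2 fold change of -0.22 ± 0.040 (SE; edgeR adjusted p = 0.00136) was under the fold threshold. P3H2, which acts mainly on basement membrane collagen, was at 61.1, 57.2 and 52.4 CPM in SCR and at 75.02, 71.6 and 72.4 CPM in TFEB-KD. All TFEB-KD libraries were above SCR. Its log2 fold change of 0.359 ± 0.057 (SE; edgeR adjusted p = 4.50e-04) fell just short of the fold threshold, and P3H2 was called higher in 14 of 16 alternative settings.

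Of the summed TPM of P3H1, P3H2 and P3H3, P3H2 made up 11.1%, 11.8% and 8.83% in SCR and 19.8%, 20.7% and 17.4% in TFEB-KD, without overlap between groups. The share of P3H1 overlapped, at 39.6% ± 1.79 in SCR against 35.5% ± 3.003 in TFEB-KD (SD, n = 3 each). The share of P3H3 was lower in every TFEB-KD library, at 51.3%, 47.9% and 50.2% in SCR and 42.5%, 47.2% and 45.8% in TFEB-KD. The log2 ratio of P3H2 to P3H1 was higher by 1.04 in TFEB-KD, and that of CRTAP to P3H1 by 0.36 (exact two-sided permutation p = 0.1 for each, adjusted 0.117). With CRTAP included, summed TPM was 428, 447 and 446 in SCR and 374, 346 and 350.6 in TFEB-KD, 81.0% of the SCR mean.

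Genes that work beside the hydroxylases were taken from lists of the same pathway and described by counts and medians. Each count is to be read against the 15.0% of all genes tested that were lower and the 9.99% that were higher. Among 16 partners and ER folding genes, 12 were lower (75%) and none was higher, with a median log2 fold change of -0.53. P3H4, a partner of PLOD1 and P3H3, was at 111, 112 and 112 CPM in SCR and at 53.5, 55.9 and 60.4 CPM in TFEB-KD (log2 fold change -0.98 ± 0.049, SE). PPIB, the isomerase of the P3H1 complex, had a log2 fold change of -0.55 ± 0.041 (SE), SERPINH1, the collagen chaperone HSP47, of -0.82 ± 0.059 (SE), and PDIA4, a disulfide isomerase, of -0.81 ± 0.043 (SE). P4HB was at -0.362 ± 0.047 (SE), barely past the threshold, and was not called in 11 of 16 alternative settings, where it ran from -0.359 to -0.272. The number of these genes called lower ran from 9 to 13 over the settings. The 4 genes not called were FKBP10 (-0.35), HSPA5 (-0.11), MIA3 (-0.014) and TMEM38B (0.14), of which the first 3 were chosen for mention with their values known. FKBP10 is an isomerase that assists PLOD2, HSPA5 is the ER chaperone BiP, and MIA3 loads procollagen for export.

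The substrates were lower still. Of 19 collagen genes tested from a list of 20, 14 were lower (73.7%) and 1 was higher (5.26%), with a median log2 fold change of -1.03. COL3A1, the type III collagen chain of skin and vessels, fell most, from 681, 707 and 802 CPM in SCR to 79.3, 84.7 and 87.1 CPM in TFEB-KD, with a log2 fold change of -3.12 ± 0.069 (SE; edgeR adjusted p = 1.76e-09). COL11A1, a minor fibrillar chain, was at 150.3, 160.01 and 181 CPM in SCR and at 22.4, 22.3 and 22.6 CPM in TFEB-KD (log2 fold change -2.87 ± 0.069, SE). Both type I chains fell, COL1A1 by 1.52 and COL1A2 by 1.24 on the log2 scale. The gene called higher was COL11A2 (0.79), at a mean of 0.845 CPM in SCR and 1.48 CPM in TFEB-KD. It was not called by limma on log2(TPM + 1) (adjusted p = 0.153), by limma on log2(TPM + 0.1) (0.146) or by edgeR with length offsets (0.158). Not called were COL6A3 (-0.27), COL7A1 (0.22), COL12A1 (-0.15) and COL14A1 (0.028). These 4 were chosen for mention with their values known. COL7A1, the anchoring fibril collagen, was called higher in the limma fits on TPM (0.529 to 0.533) and with length offsets (0.503). COL1A1 was at 1769, 1957 and 2096 TPM in SCR and at 736, 676 and 674 TPM in TFEB-KD. Summed over the 20 listed genes, collagen TPM in TFEB-KD was 50.7% of SCR, a lower percentage than for any of the 3 hydroxylase families. Collagen TPM per TPM of the alpha subunits of prolyl 4-hydroxylase was 34.4, 35.9 and 36.9 in SCR and 30.0, 30.3 and 29.4 in TFEB-KD. Per TPM of the lysyl hydroxylases it was 13.4, 12.5 and 13.1 in SCR and 8.68, 8.89 and 8.86 in TFEB-KD. Both ratios were lower in every TFEB-KD library than in any SCR library. All 5 lysyl oxidases, which act on the lysines and hydroxylysines outside the cell, were lower, with a median of -1.60, LOX at -1.60 ± 0.046 (SE), LOXL2 at -1.40 ± 0.046 (SE) and LOXL4 at -1.65 ± 0.057 (SE).

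**Figure D4:**
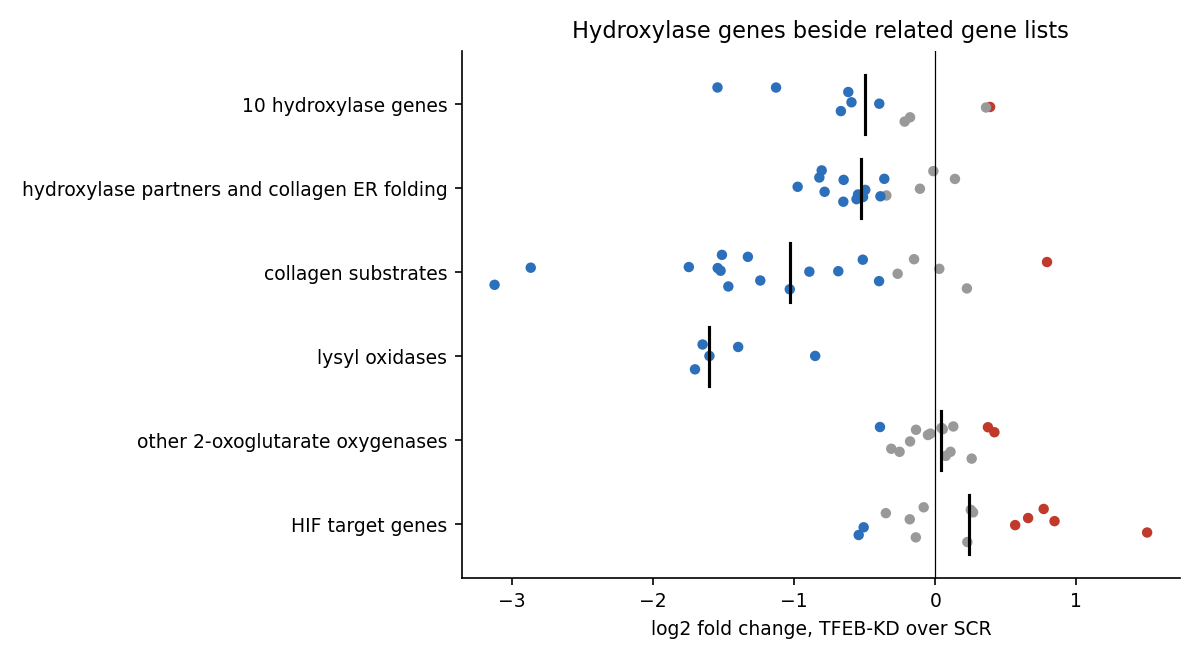
Log2 fold change, TFEB-KD over SCR, of the 10 hydroxylase genes and of the tested genes of 5 related lists (blue, called lower; red, called higher; grey, not called), with a bar at each median. The hydroxylases, their partners, collagens and lysyl oxidases have medians from -0.50 to -1.60, while the other oxygenases and HIF targets have medians of 0.044 and 0.24.

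Other enzymes with the same cofactors had a median close to that of all genes. Of 15 other 2-oxoglutarate oxygenases tested from a list of 16, 1 was lower (6.67%), 2 were higher (13.3%) and 12 were not called, with a median log2 fold change of 0.044. The gene that was lower was OGFOD3 (-0.39 ± 0.053, SE), and those that were higher were PHYH, which oxidizes phytanic acid (0.42 ± 0.053, SE), and OGFOD2 (0.37 ± 0.083, SE), the last chosen for mention with its value known. OGFOD3 was not called in 6 of 16 alternative settings, where it ran from -0.338 (without TFEB-KD replicate 1) to -0.245. OGFOD2 was not called in 5, with an adjusted p from 0.0720 to 0.0828 in the limma fits and with length offsets, and a log2 fold change of 0.278 without SCR replicate 3. ALKBH5, an RNA demethylase, was at 0.26 ± 0.043 (SE; edgeR adjusted p = 6.58e-04), under the fold threshold. The oxygen sensor EGLN1, a prolyl hydroxylase of HIF, was at -0.14 ± 0.047 (SE; edgeR adjusted p = 0.0354), and its adjusted p was above 0.05 in 14 of 16 alternative settings, with a range from 0.0381 to 0.943. EGLN3 was left out by the filter, with 4 to 14 counts per library. Of 14 HIF targets tested from a list of 16, 5 were higher (35.7%) and 2 were lower (14.3%), where 9.99% and 15.0% of all genes tested were, with a median of 0.24. VEGFA, the angiogenic growth factor, rose from 62.5 ± 5.97 to 177 ± 4.62 CPM (SD, n = 3 each), with a log2 ratio of 1.501 ± 0.063 (SE; edgeR adjusted p = 3.39e-08). NDRG1 (0.84), PFKFB4 (0.77), KDM3A (0.66) and PDK1 (0.57) also rose, while the glucose transporter SLC2A1 (-0.54) and ADM (-0.51) fell. The 7 targets not called were LDHA (-0.35), PGK1 (-0.18), ALDOA (-0.14), ENO1 (-0.082), ANKRD37 (0.23), BNIP3 (0.25) and MXI1 (0.27). KDM3A, PDK1, ADM and these 7 were chosen for mention with their values known.

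PLOD2 was the hydroxylase with the smallest adjusted p, and the genes most like it were sought by the root mean square distance between log2 CPM profiles over the 6 libraries, each centred on its own mean. The nearest of all genes tested were ADAMTS12, a metalloproteinase (distance 0.038), LOX (0.044) and COL4A1, a basement membrane collagen (0.052). ADAMTS12 was at 53.5, 59.2 and 58.7 CPM in SCR and at 19.0, 19.1 and 19.0 CPM in TFEB-KD. Among the other hydroxylases, P4HA1 was nearest to PLOD2 (0.22) and P4HA3 farthest (0.97). The measure mostly follows the difference between the groups and is given as a description.

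**Figure D5:**
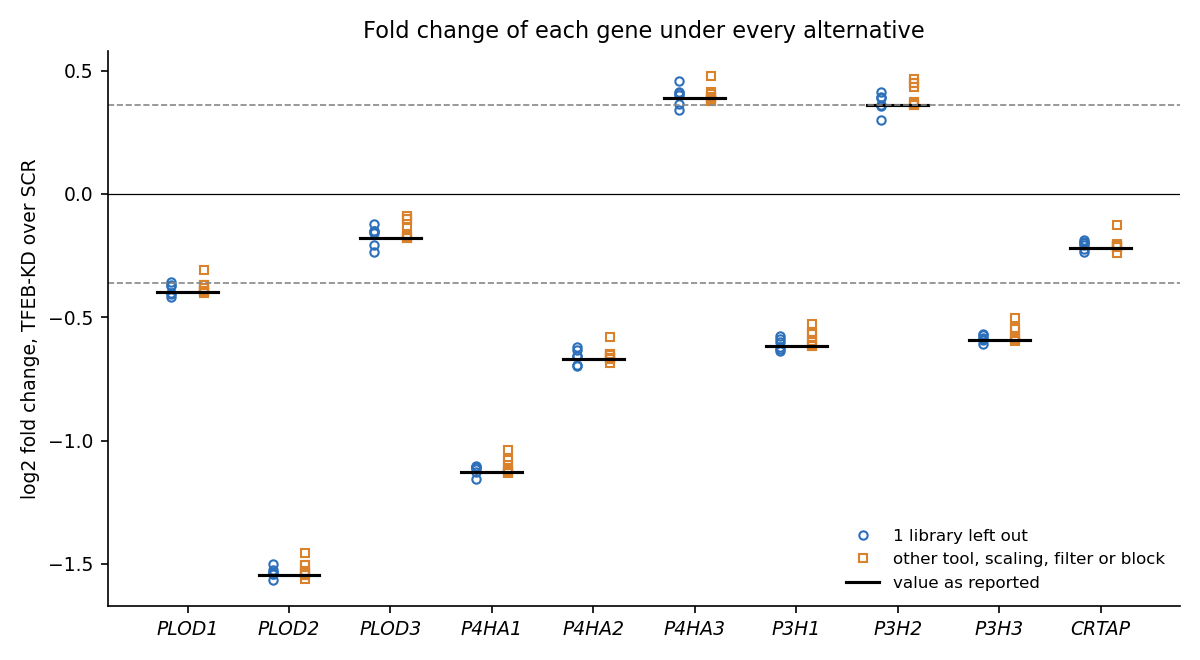
Log2 fold change of each hydroxylase gene as reported (black bar), without each single library (blue circles) and under the other 10 settings (orange squares), with dashed lines at the threshold of 0.36. No gene changes sign, and PLOD1, P4HA3 and P3H2 are the genes whose points lie on both sides of the threshold.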

How the data were processed

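RNA-seq was analysed from 3 SCR and 3 TFEB-KD libraries of HFF-2 HDFs at tBHP day 4. The authors trimmed reads with Trim Galore, ran STAR 2.7.10a and Salmon 1.10.1 in the nf-core pipeline on hg38 GENCODE, and deposited gene-level estimated counts without scaling between libraries, and TPM, scaled for transcript length and library total. Another deposited table holds their own DESeq2 fold changes and p-values and was not used. The library kit was SMARTer mRNA-seq. The GENCODE release is not given in the sources used here. Of 62754 gene identifiers, 62700 were in GENCODE 44 (GRCh38), used for positions.

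Counts were rounded, filtered by filterByExpr, scaled by TMM and compared with edgeR 4.0.16 (R 4.3.3; glmQLFit and glmQLFTest), with Benjamini-Hochberg adjustment over all 16931 genes and calls at an adjusted p below 0.05 and a log2 fold change beyond ±0.36, the limits the study used. Standard errors are the fold change over the square root of F. Ratios of TPM were compared by exact permutation. Between libraries, the chi-square per degree of freedom was at least 5.09, so none was a copy. The edgeR fit with and without the replicate block, DESeq2 and limma on log2(TPM + 1) were tested on simulated data, and the other alternatives were not. In the simulation the main edgeR fit called 76 of 100 genes changed by 1 log2 unit in the right direction. It called 94 of 97 genes changed by 2 units, and also 15 unchanged genes (21 with the block). Changes smaller than 1 log2 unit were not simulated. Alternatives were DESeq2 1.42.0, other scaling and filters, a replicate block, limma 3.58.1 on log2(TPM + 1) and log2(TPM + 0.1), length offsets and leaving out each library. Members and lists were chosen with earlier results of these data known. Genes named were TFEB, all members, preset genes of each list, its 3 smallest adjusted p and its largest rise, genes that overlap a member and the 3 most like PLOD2. Others are said to be chosen with their values known.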

Additional observations from a re-analysis of the deposited data

How the results depend on the processing

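No hydroxylase gene changed sign under any of the 16 alternatives. PLOD2, P4HA1, P4HA2, P3H1 and P3H3 were called lower in all of them, with log2 fold changes at their least extreme of -1.45, -1.04, -0.58, -0.53 and -0.50, each with library sizes alone, which moved the median of all genes from 0.0033 to 0.093. PLOD1 was then not called (-0.31), and leaving out each library gave -0.418 to -0.357. P3H2 was called higher with DESeq2 (0.365), library sizes alone (0.448), RLE factors (0.365), every gene kept (0.361), a minimum of 10 counts per library (0.374), the replicate block (0.363), limma on log2(TPM + 1) with all genes tested (0.451) or a mean TPM of at least 1 (0.451), limma on log2(TPM + 0.1) (0.466) and length offsets (0.432). With each library left out, it ran from 0.301 to 0.414 and P4HA3 from 0.341 to 0.457. The number of hydroxylases called higher was accordingly 2 under each of those 10 settings and 1 to 2 with a library left out, and the number called lower was 5 with library sizes alone or without TFEB-KD replicate 3, against 6. All genes called lower numbered 2532, and 1668 with limma on log2(TPM + 1) or 1484 when a mean TPM of at least 1 was required. Of the other oxygenases, 0 were lower with library sizes alone, length offsets or any limma fit, and 1 was higher with length offsets or any limma fit; with a library left out, 0 to 2 were lower and 1 to 2 higher. The log2 ratio of P3H3 to P3H1 ran from -0.0841 to 0.108 with a library left out. Genes near 0 changed sign: TMEM38B (-0.0209 with limma on log2(TPM + 1) in both gene sets, -0.0241 on log2(TPM + 0.1), -0.0559 with length offsets), MIA3 (0.0755 with library sizes alone, 0.00150 with a minimum of 10 counts per library, 0.462 and 0.485 with limma on log2(TPM + 1) and log2(TPM + 0.1), 0.455 with length offsets, -0.0553 to 0.0473 with a library left out) and COL14A1 (-0.145 to 0.315 with a library left out). The cause of these changes was not tested. Same-numbered libraries did not deviate together (correlations of -0.11, 0.040 and 0.020, with 1 of 6 libraries closest to its own number). A pairing with little shared deviation would look the same, so whether the numbers pair the libraries cannot be told. With the replicate number as a block, 2450 genes were lower and 1595 higher, and the adjusted p of PLOD3 was 0.0672 from edgeR. Depth limited none of the hydroxylases, whose lowest count was 507, but precision rests on 3 libraries per group.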

Other observations

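The ratio of deposited count to TPM, which follows the mean length of the transcripts assigned to a gene, was compared between libraries relative to the median gene. It was nearly constant for P4HA1 (0.996 to 1.00 times its mean over the 6 libraries) and PLOD1 (0.992 to 1.01), and varied more for PLOD2 (0.960 to 1.06), PLOD3 (0.965 to 1.09), P3H1 (0.927 to 1.096) and P3H2 (0.882 to 1.13). For P3H2 the values were 1.09, 0.882 and 1.13 in SCR and 0.931, 0.917 and 1.08 in TFEB-KD, with overlap between groups. Relative to its mean, the TPM of these 4 genes varied more between SCR libraries than the CPM, as in the SD of P3H2 in SCR, 3.80 of a mean of 23.0 TPM against 4.37 of a mean of 56.9 CPM. PDLIM4, a cytoskeletal adaptor that overlaps P4HA2 on the opposite strand, had a log2 fold change of -2.22 (adjusted p = 1.63e-08 from edgeR), a larger decrease than that of P4HA2, and shared no exon base with it. SLC22A4, a transporter gene that also overlaps P4HA2 without sharing exon bases, had a log2 fold change of -0.0167 (adjusted p = 0.839 from edgeR). The other genes that overlap a hydroxylase and are not named here had mean counts of at most 5.83.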
